A study of Mus musculus with 4 samples.

Results

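Levels of 9 genes of the red blood cell were read in 4 RNA sequencing libraries of mouse retina. They are the embryonic globins Hba-x, Hbb-y and Hbb-bh1, the adult globins Hba-a1, Hba-a2, Hbb-bs and Hbb-bt, the heme synthesis enzyme gene Alas2 and the anion exchanger gene Slc4a1. The 9 genes were taken by symbol from the 25239 gene IDs of each library's table. They had been chosen because their levels differed between these libraries, so those levels are a description, and their values in the fit across all genes are given beside it and support nothing. The study compared control retina with retina labelled Isl1cKO, a conditional knockout of the LIM-homeodomain gene Isl1, at E13.5, with 2 libraries in each group. The Cre driver, the strain, the control genotype and the number of embryos per library are not given in the sources used here.

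The targeted gene was read first. Levels are in TPM, transcript abundance scaled to transcript length and to a library total of 1000000. Isl1 read 242 TPM in control replicate 1, 201 in control replicate 2, 321 in Isl1cKO replicate 1 and 223 in Isl1cKO replicate 2. The limma adjusted p-value of that difference was 0.683. Isl1 TPM was therefore not lower under that label, and each direction below rests on the labels. No values per exon were available, so a deletion of part of the gene could not be seen in this level. Aligned sequence, derived from deposited coverage and FPKM, ranged from 12.6 to 14.3 gigabases per library. The library labelled Isl1cKO replicate 2 stood apart, with the least sequence and with Xist at 0.501 TPM against 209 to 287 TPM in the other libraries.

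Haemoglobin is a tetramer of alpha-type and beta-type globin chains, each holding a heme. The first, primitive red cells of the mouse form in the yolk sac and make embryonic globins, while the definitive red cells from the fetal liver make adult globins, and both kinds circulate together at mid-gestation. Hba-x encodes the embryonic alpha-type chain zeta, and Hbb-y and Hbb-bh1 encode embryonic beta-type chains. The retina is not a site of red cell formation, and its globin RNA is mostly read as blood in or around the tissue, although adult globin chains have also been reported in some neurons.

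The alpha-type genes lie together on chromosome 11 and the beta-type genes on chromosome 7. The promoter sequences are shown because the genes below were read as 1 group and because near-identical copies bear on how reads could be divided. RefSeq promoter sequences (GRCm38.p6) were found for 7 of the 9 genes. The 150 bases before each start were searched on both strands for 5 motifs. The first were CACCC, which KLF proteins bind, and CCAAT, which the factor NF-Y binds. The others were GATAA, which Gata1 and its relatives bind, and a pair of TATA box forms. Those forms were TATAA and, more loosely, the letters ATAAA. Matches are in capitals. The TATA box forms overlap where both occur, and in Alas2 a reverse strand match of ATAAA overlaps that of GATAA.
Hba-x (chr11:32276450-32276599, plus strand): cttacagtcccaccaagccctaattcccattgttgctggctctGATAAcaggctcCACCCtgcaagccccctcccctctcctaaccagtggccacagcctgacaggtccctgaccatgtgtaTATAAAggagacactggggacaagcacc
Hbb-y (chr7:103853208-103853357, minus strand): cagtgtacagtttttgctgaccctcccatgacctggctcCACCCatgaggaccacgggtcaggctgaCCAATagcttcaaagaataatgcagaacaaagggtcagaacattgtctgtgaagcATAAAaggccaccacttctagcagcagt
Hba-a1 (chr11:32283522-32283671, plus strand): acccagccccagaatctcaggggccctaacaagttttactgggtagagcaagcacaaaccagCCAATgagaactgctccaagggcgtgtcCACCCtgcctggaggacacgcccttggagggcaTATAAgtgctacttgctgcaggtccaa
Hbb-bs (chr7:103827929-103828078, minus strand): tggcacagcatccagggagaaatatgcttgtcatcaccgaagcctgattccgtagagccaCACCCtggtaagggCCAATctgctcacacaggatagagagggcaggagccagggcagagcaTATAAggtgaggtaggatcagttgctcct
Hbb-bt (chr7:103813924-103814073, minus strand): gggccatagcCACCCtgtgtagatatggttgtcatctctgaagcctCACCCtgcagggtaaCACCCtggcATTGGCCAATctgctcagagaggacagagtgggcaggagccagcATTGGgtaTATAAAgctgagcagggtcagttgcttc
Alas2 (chrX:150547267-150547416, plus strand): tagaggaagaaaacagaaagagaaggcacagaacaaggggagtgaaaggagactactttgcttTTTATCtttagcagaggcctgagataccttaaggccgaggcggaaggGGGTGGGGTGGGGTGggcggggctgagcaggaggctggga
CACCC was present in each of these windows, as in 37.4% of all 32851 promoter windows of this length. CCAAT was present in Hbb-y, Hba-a1, Hbb-bs and Hbb-bt, and in 24.5% of all windows. GATAA was present in Hba-x and Alas2, and in 13.3% of all windows. A TATAA or ATAAA match on the gene's own strand began 28 bases before the start in Hba-x, Hbb-y and Hbb-bt, 29 in Hbb-bs and 27 in Hba-a1. TATAA occurred in 14.2% and ATAAA in 24.1% of all windows. The first pair of motifs and either TATA box form occurred together in 2.10% of all windows, and in Hbb-y, Hba-a1, Hba-a2, Hbb-bs and Hbb-bt among the 7 genes. The Hba-a2 entry is not printed because it matched that of Hba-a1 at 297 of 297 bases when shifted by 3 bases.

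The coding sequences of the adult copies are almost the same. In the GENCODE transcripts, Hba-a1 and Hba-a2 differed at 1 of 426 coding positions, as C381T, with positions counted from the first base of the start codon and the base of Hba-a1 first. Hbb-bs and Hbb-bt differed at 1 of 441 positions, as C417T, with the base of Hbb-bs first. The 31 coding bases around each difference are shown 5′ to 3′, with the differing base in capitals.
Hba-a1: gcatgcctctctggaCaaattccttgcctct
Hba-a2: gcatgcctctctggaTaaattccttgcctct
Hbb-bs: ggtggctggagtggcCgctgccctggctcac
Hbb-bt: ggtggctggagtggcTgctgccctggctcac
The embryonic genes are more distant. Hba-x was 61.7% identical to Hba-a1 in coding sequence, Hbb-y 76.4% identical to Hbb-bh1 and 74.4% identical to Hbb-bs. The division of TPM between the members of an adult pair is therefore uncertain, while the sum over a pair and the embryonic genes are less exposed to it.

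Embryonic globins were present in all 4 libraries and were lowest in the library labelled Isl1cKO replicate 2. Hbb-y (chromosome 7, 103851754 to 103853207, minus strand) encodes the main embryonic beta-type chain of these libraries. Its level was 768 TPM in control replicate 1, 1124 in control replicate 2, 438 in Isl1cKO replicate 1 and 69.4 in Isl1cKO replicate 2. Hba-x (chromosome 11, 32276600 to 32278115, plus strand) stood at 119 and 152 TPM in control and at 82.8 and 21.7 TPM in Isl1cKO. Hbb-bh1 (chromosome 7, 103841638 to 103843162, minus strand), which is expressed early in primitive red cells, stood at 9.09 and 20.9 TPM in control and at 6.35 and 2.56 TPM in Isl1cKO. In each of the 3 genes the groups did not overlap, and the order of the libraries was the same, from control replicate 2 down to Isl1cKO replicate 2. Over all genes tested, 30.0% had both controls above both libraries labelled Isl1cKO, and 6.29% had this order. The 2 libraries labelled Isl1cKO differed from each other by 3.82-fold in Hba-x, 6.31-fold in Hbb-y and 2.48-fold in Hbb-bh1. Among the controls the same figures were 1.28, 1.46 and 2.30. Hbb-y made up 85.7% and 86.7% of embryonic globin TPM in control and 83.1% and 74.1% in Isl1cKO.

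Hba-a1, an adult alpha globin, had the highest level of the 9 genes in every library. Hba-a1 stood at 1472 and 1980 TPM in control and at 698 and 107 TPM in Isl1cKO. Its near-copy Hba-a2 stood at 81.4 and 159 TPM in control and at 13.53 and 2.68 TPM in Isl1cKO. As in 30.0% of all genes tested, both genes were lower in both libraries labelled Isl1cKO than in either control. Their deposited rows span both gene copies on chromosome 11 (32283672 to 32297303 for Hba-a1) in 3 libraries, and each gene is split into 2 rows, 1 per copy, in Isl1cKO replicate 2. The sum of both genes, which that division does not touch, was 1554 and 2139 TPM in control and 712 and 109.6 TPM in Isl1cKO. In all 4 libraries between 92.5% and 98.1% of this sum was assigned to Hba-a1.

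The adult beta globins Hbb-bs and Hbb-bt need to be read with 2 further gene IDs. Hbb-bs stood at 323 and 521 TPM in control, at 131 TPM in Isl1cKO replicate 1, and was listed at 0 in Isl1cKO replicate 2. Hbb-bt stood at 124 and 201 TPM in control and at 44.6 and 0.225 TPM in Isl1cKO. Hbb-bs and Hbb-bt are the adult beta genes of the haplotype carried by the C57BL reference genome, and Hbb-b1 and Hbb-b2 are their counterparts in the other common laboratory haplotype. The deposited tables hold both pairs at nearly the same positions on chromosome 7, with Hbb-b1 at 103826532 to 103827929 against Hbb-bs at 103826523 to 103827928. Hbb-b2 has the same start and end as Hbb-bt, 103812524 and 103813923. Hbb-b1 stood at 4.09, 9.60 and 0.173 TPM in the first 3 libraries and at 13.9 TPM in Isl1cKO replicate 2. Hbb-b2 stood at 109 and 181 TPM in control and at 50.1 and 10.3 TPM in Isl1cKO.

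The gene ID that took the adult beta TPM thus differed in 1 library. At the position of Hbb-bs, the ID Hbb-b1 took 1.25%, 1.81% and 0.133% of the summed TPM in the controls and Isl1cKO replicate 1, and 100% in Isl1cKO replicate 2. At the position of Hbb-bt, Hbb-b2 took 46.9%, 47.4% and 52.9% in those 3 libraries and 97.9% in Isl1cKO replicate 2. Summed by position, the levels followed the other globins. The Hbb-bs position held 327 and 530 TPM in control and 131 and 13.9 TPM in Isl1cKO, and the Hbb-bt position 233 and 382 TPM in control and 94.7 and 10.5 TPM in Isl1cKO. The ratio of the first position to the second was 1.40, 1.39, 1.38 and 1.32 over the 4 libraries. The 0 of Hbb-bs in Isl1cKO replicate 2 is therefore a value of that gene ID and not of the position, where Hbb-b1 had a mean coverage of 68.8 per base. Whether that library holds another haplotype, or the reads were divided differently, was not tested.

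**Figure D1:**
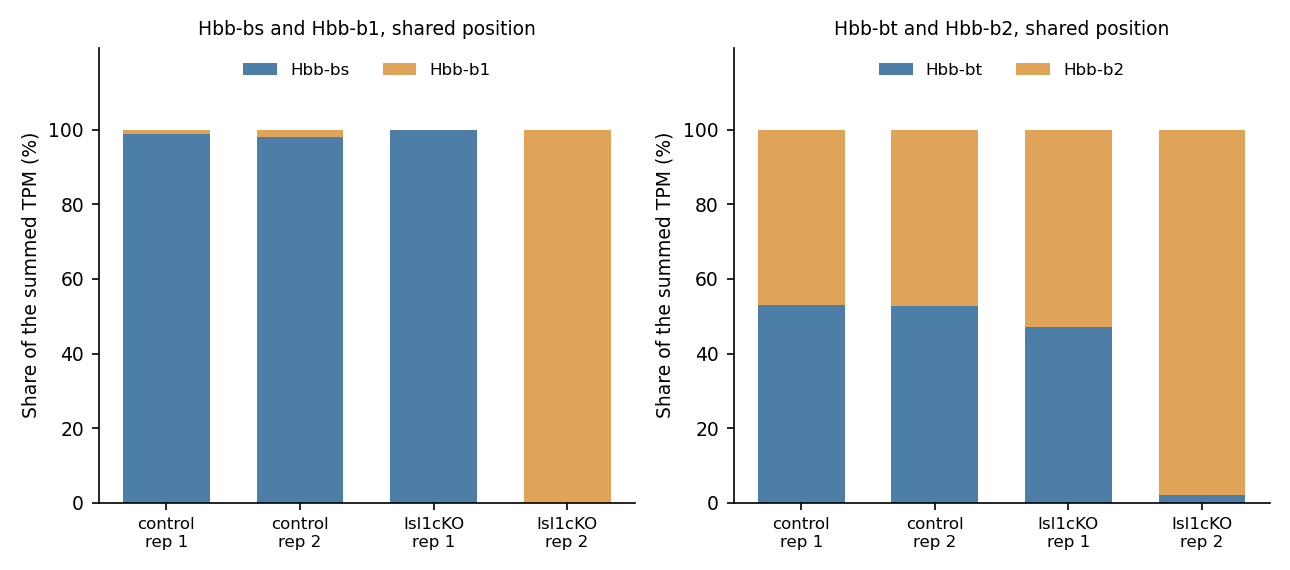
Share of the summed TPM (%) at each adult beta globin position that was assigned to each of its 2 gene IDs, in each of the 4 libraries (rep, replicate). Hbb-b1 took 1.81% or less in 3 libraries and 100% in Isl1cKO replicate 2, and Hbb-b2 took between 46.9% and 52.9% in the same 3 libraries and 97.9% in the fourth.

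With Hbb-b1 and Hbb-b2 counted, all globins together made up 0.301% and 0.435% of TPM in control and 0.146% and 0.0228% in Isl1cKO. In TPM these sums were 3010 and 4349 in control and 1464 and 228 in Isl1cKO. Control libraries averaged 3679 ± 947 TPM and those labelled Isl1cKO 846 ± 874 TPM (SD over n = 2 libraries). The control mean was 2.51 times the value of Isl1cKO replicate 1 and 16.2 times that of replicate 2. The 6.43-fold gap between the libraries labelled Isl1cKO was thus wider than the gap between Isl1cKO replicate 1 and the control mean. In such bulk libraries fewer red cells and less globin RNA per cell cannot be told apart.

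**Figure D2:**
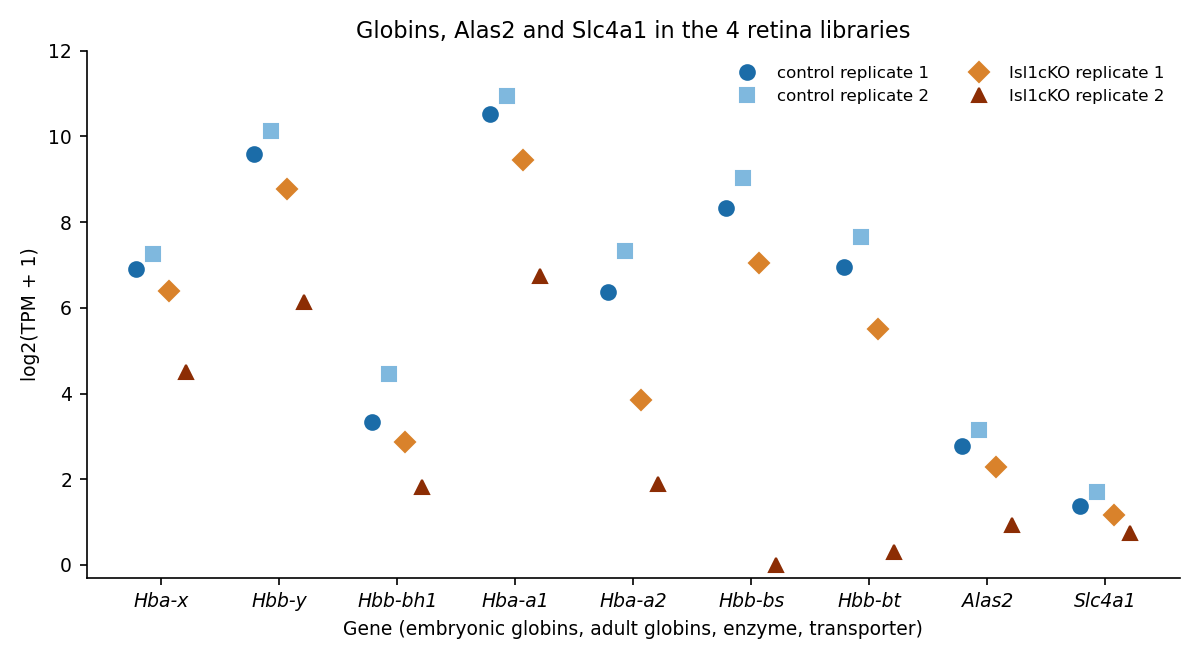
Level of each of the 9 genes, as log2(TPM + 1), in the 2 control libraries (blue) and the 2 libraries labelled Isl1cKO (orange and brown), 1 symbol per library. In every gene the brown triangle of Isl1cKO replicate 2 is lowest, and Hbb-bs is listed at 0 there.

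The balance between embryonic and adult globins also differed between the libraries. Over the 7 globins chosen, the ratio of summed embryonic to summed adult TPM was 0.448 and 0.453 in control and 0.594 and 0.852 in Isl1cKO. With Hbb-b1 and Hbb-b2 counted as adult, it was 0.424 and 0.425 in control and 0.562 and 0.698 in Isl1cKO, which are means of 0.424 ± 0.000572 and 0.630 ± 0.0963 (SD, n = 2 each). The controls thus had nearly the same balance although their summed globin TPM differed by 1.44-fold, and both libraries labelled Isl1cKO lay above them. Embryonic genes made up 29.8% of globin TPM in each control, 36.0% in Isl1cKO replicate 1 and 41.1% in Isl1cKO replicate 2.

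In TPM the 2 chain families gave the same order. Within the alpha family the ratio of Hba-x to Hba-a1 plus Hba-a2 was 0.0765 and 0.0709 in control and 0.116 and 0.198 in Isl1cKO. Within the beta family, with Hbb-b1 and Hbb-b2 counted, the ratio of Hbb-y plus Hbb-bh1 to adult TPM was 1.39 and 1.25 in control and 1.97 and 2.95 in Isl1cKO. Without those 2 gene IDs the beta ratio was 1.74, 1.59 and 2.53 in the first 3 libraries and 319 in Isl1cKO replicate 2, where nearly all adult beta TPM carried the other names. The order of the libraries labelled Isl1cKO depended on the unit, since the Hba rows are split in 1 of them. In deposited coverage per base the ratio over the 7 globins was 0.733 and 0.724 in control and 0.992 and 0.852 in Isl1cKO, and within the alpha family it was 0.153 and 0.142 in control and 0.233 and 0.198 in Isl1cKO. Both remained above the controls there, with replicate 1 the higher. The Hba-a1 rows had a coverage to FPKM ratio of 7.13 and 6.63 in control and 7.13 in Isl1cKO replicate 1. For Hba-x the ratio was 14.3, 13.3 and 14.3 there, and both genes stood at 12.6 in Isl1cKO replicate 2. Coverage thus lowers adult alpha globin in the first 3 libraries only, and no difference in balance is read from this order. In TPM, adult globins outnumbered embryonic ones among the alpha chains in all 4 libraries, and the reverse held among the beta chains. In both libraries labelled Isl1cKO, embryonic and adult sums were below those of the controls. The embryonic sum went from a control mean of 1097 TPM to 527 and 93.6 TPM, and the adult sum from 2583 to 937 and 134 TPM. The ratio of alpha-type to beta-type TPM was 1.25 and 1.11 in control and 1.19 and 1.36 in Isl1cKO. In Isl1cKO replicate 2 it was 1.82 without Hbb-b1 and Hbb-b2, against 1.23 to 1.37 in the other libraries, and 0.951 when only the higher row of each split gene was taken, with Hbb-b1 and Hbb-b2 counted.

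**Figure D3:**
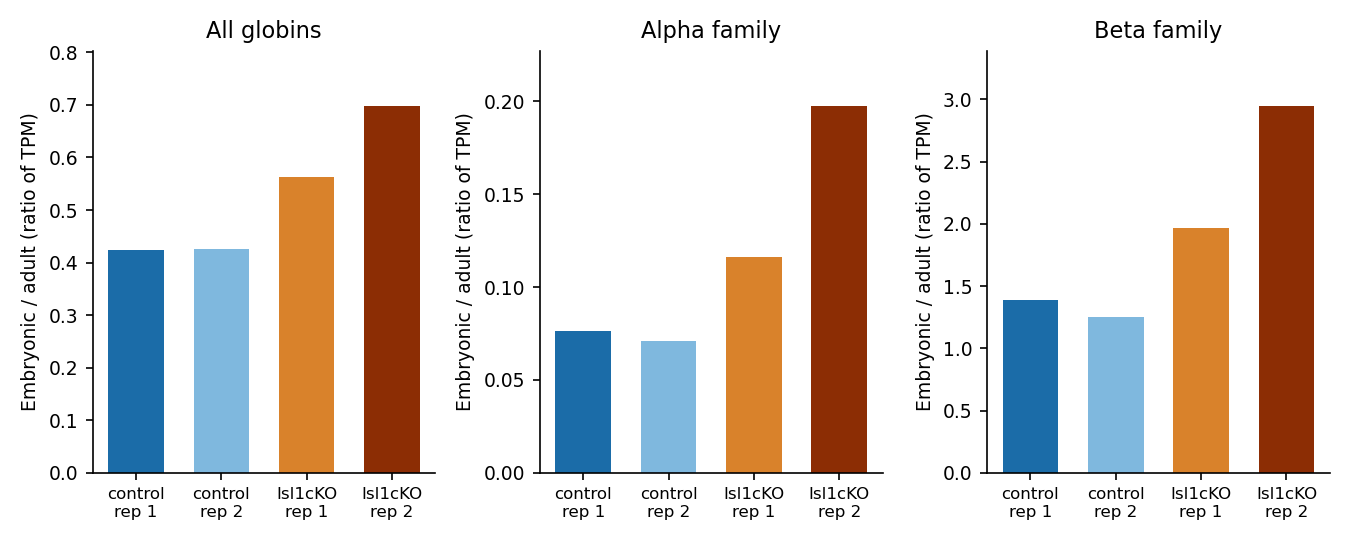
Ratio of embryonic to adult globin TPM in each library (bars, 1 library each), over all globins, within the alpha family and within the beta family, with Hbb-b1 and Hbb-b2 counted as adult. In each panel the 2 controls are lowest and Isl1cKO replicate 2 is highest, at 0.698, 0.198 and 2.95. Coverage per base, which is lowered in Hba rows that span both copies, turns this order for the alpha family (0.233 in replicate 1 and 0.198 in replicate 2).

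Alas2 (chromosome X, 150547417 to 150570622, plus strand) encodes the red cell form of the first enzyme of heme synthesis. It stood at 5.86 and 7.85 TPM in control and at 3.89 and 0.894 TPM in Isl1cKO. Slc4a1 (chromosome 11, 102348820 to 102365281, minus strand) encodes band 3, the chloride-bicarbonate exchanger that also anchors the red cell skeleton. It stood at 1.60 and 2.24 TPM in control and at 1.24 and 0.685 TPM in Isl1cKO, with a mean coverage per base from 3.39 to 11.1. Both genes had the library order of the globins, as had 6.29% of all genes tested. The 2 libraries labelled Isl1cKO differed by 4.35-fold in Alas2 and 1.80-fold in Slc4a1, against 2.48-fold in Hbb-bh1, 3.82-fold in Hba-x, 5.05-fold in Hba-a2, 6.31-fold in Hbb-y and 6.53-fold in Hba-a1. Per 1000 TPM of globin, Alas2 stood at 1.95 and 1.80 TPM in control and at 2.66 and 3.93 TPM in Isl1cKO.

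In the comparison of all genes with limma on log2(TPM + 1), 69 of 13984 genes tested passed an adjusted p-value of 0.05, which is 0.493%. They were 65 lower in Isl1cKO (0.465%) and 4 higher (0.0286%). All 9 genes were tested, and 0 of them passed. Unadjusted, 5 of 9 had a p-value under 0.05, all lower in Isl1cKO, against 12.1% of all genes in either direction and 8.92% in that one. In all 9 both controls lay above both libraries labelled Isl1cKO, as in 30.0% of all genes tested, while 14.9% had the opposite arrangement. All 9 had the library order of Hbb-y, as had 6.29% of all genes, and all 9 were lowest in Isl1cKO replicate 2, as were 46.2%. The fold change was below 0 in all 9 and in 63.8% of all genes, and -1 or less on the log2 scale in 8 of the 9 and in 1.48% of all genes. Since the genes were chosen on these levels, nothing is read from these counts. Their log2 fold changes ran from -0.58 (SE 0.19) for Slc4a1 to -5.16 (SE 2.37) for Hbb-bs, with a median of -2.41 against -0.05 over all genes. Without Isl1cKO replicate 2 the log2 fold change was -1.64 for Hbb-bs, -1.80 for Hbb-bt, -1.29 for Hba-a1, -2.98 for Hba-a2, -1.09 for Hbb-y, -1.02 for Hbb-bh1, -0.69 for Hba-x, -0.67 for Alas2 and -0.38 for Slc4a1. Without Isl1cKO replicate 1 it was -8.68 for Hbb-bs, -7.02 for Hbb-bt, -3.98 for Hba-a1, -3.72 for Hbb-y and -2.58 for Hba-x, and -2.04 for Alas2. Without control replicate 2 it was -0.98 for Hbb-bh1. Summed by position, the fold changes with all libraries were -3.24 (SE 1.08) for Hbb-bs with Hbb-b1 and -3.17 (SE 1.05) for Hbb-bt with Hbb-b2. In the refit without Isl1cKO replicate 1, that group's lone library is assumed to vary like the controls. The fold changes of Hbb-bs and Hbb-bt there rest on 0 and 0.225 TPM under those gene IDs in Isl1cKO replicate 2. In that library Hbb-b1 and Hbb-b2 held 13.9 and 10.3 TPM at the same positions. No refit summed by position was run with a library left out.

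Other genes of the red cell that the choice did not use were then read, in 6 lists. Together they held 50 tested genes, of which 1 passed in limma, lower in Isl1cKO, and 10 had an unadjusted p-value under 0.05, against 0.493% and 12.1% of all genes. Their median log2 fold change was -0.02, with 26 below 0 and 24 above, and in 14 both controls lay above both libraries labelled Isl1cKO, as in 30.0% of all genes. Many of these genes are also expressed in neural tissue, which limits them as a measure of blood. Of 12 red cell markers in the tables, Klf1 was the 1 that met the level needed for testing. Hemgn, a nuclear protein of red cell precursors, was listed at 0 in all 4 libraries.

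Heme synthesis beyond Alas2 did not follow the globins. Of 8 enzymes tested 0 passed in limma, 0 had an unadjusted p-value under 0.05, and the summed TPM lay between 264 and 278 in every library. Alas1, the form of the same enzyme made in all tissues, stood at 24.9 and 23.3 TPM in control and at 24.5 and 25.1 TPM in Isl1cKO. Among later enzymes of the pathway the log2 fold change was -0.11 for Cpox, -0.09 for Alad and 0.07 for Uros.

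Of the membrane and skeleton genes, 6 of 16 were tested, 0 passed in limma and 4 had an unadjusted p-value under 0.05, each with a fold change below 0, against 8.92% of all genes. The median log2 fold change was -0.46, with 5 below 0 and 1 above, at 0.17. Add2, beta-adducin, stood at 70.5 and 58.4 TPM in control and at 46.4 and 34.1 TPM in Isl1cKO. Dmtn, which encodes dematin, stood at 3.06 and 2.67 TPM against 1.91 and 1.02 TPM, and the erythroid beta-spectrin gene Sptb at 1.67 and 1.27 TPM against 0.850 and 0.635 TPM. The water channel gene Aqp1 stood at 1.72 and 1.36 TPM against 0.765 and 1.05 TPM. Add2, Dmtn and Sptb are also expressed in neurons, and the share of each cell type in these levels was not tested.

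Among 13 erythroid transcription factors 7 were tested, and Lmo2 alone passed. Lmo2, a LIM-domain adaptor of the complex that drives red cell genes, stood at 14.8 and 11.2 TPM in control and at 1.58 and 1.35 TPM in Isl1cKO. It fell by 2.50 on the log2 scale (SE 0.15, adjusted p-value 0.0199 in limma). Its values in the libraries labelled Isl1cKO lay close together, where those of the globins did not. Its call was lost without the filter on low values (limma adjusted p-value 0.0799), and leaving out any 1 library lost it too (limma adjusted p-values 0.0503 to 0.105), with log2 fold changes from -2.31 to -2.68. Gata1, a master regulator of red cell genes, was at 0.126 and 0.159 TPM in control and was listed at 0 in both libraries labelled Isl1cKO. Klf1, which activates adult beta globin in red cells, stood at 0.835 and 1.23 TPM in control and at 1.32 and 1.60 TPM in Isl1cKO. Zfpm1 had a log2 fold change of 0.30, Klf3 of 0.10 and Myb of -0.08, and none of the 3 passed. Bcl11a and Sox6, which silence embryonic globins in definitive red cells, did not pass or were too low to test. Bcl11a, also a neuronal factor, stood at 19.8 and 17.6 TPM in control and at 17.4 and 19.8 TPM in Isl1cKO.

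In the other red cell lists 0 genes passed in limma. Of 7 soluble red cell proteins tested, 3 had an unadjusted p-value under 0.05. The carbonic anhydrase gene Car2 stood at 9.45 and 8.77 TPM in control and at 5.37 and 6.06 TPM in Isl1cKO, while the heme-binding protein gene Hebp1 stood at 12.5 and 16.3 TPM against 21.9 and 26.0 TPM. Bpgm, which makes the regulator of oxygen release 2,3-bisphosphoglycerate, had a log2 fold change of -0.26. Of 13 iron and heme handling genes tested 0 had an unadjusted p-value under 0.05. The mitochondrial iron importer gene Slc25a37 had 0.22, the heme exporter gene Flvcr1 -0.16 and the heme oxygenase gene Hmox1 0.15. Of 9 maturation genes tested 2 had an unadjusted p-value under 0.05. The mitophagy receptor gene Bnip3l had a log2 fold change of 0.31, Tspan33 of -0.27, Fbxo7 of -0.13 and Mkrn1 of -0.11.

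**Figure D4:**
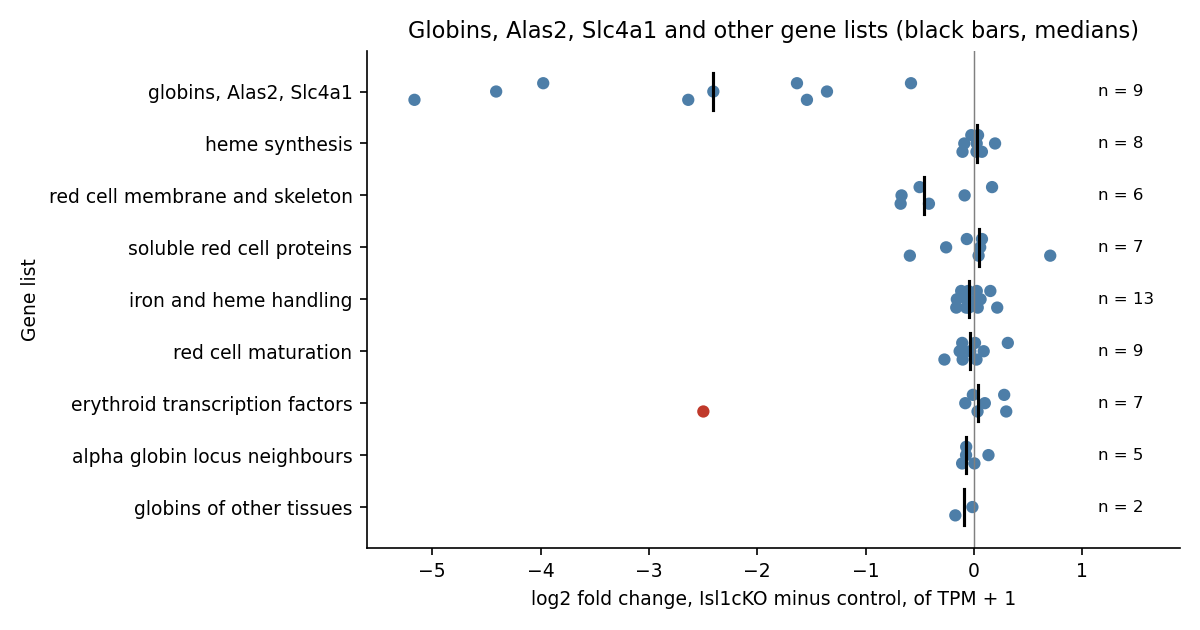
Log2 fold change of TPM + 1, Isl1cKO minus control, of each tested gene in each list (points), with list medians as black bars and n as the number tested. The only red point, Lmo2, passed an adjusted p-value of 0.05 in limma, and the 9 genes of the top row run from -0.58 to -5.16.

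Globins of other tissues stood apart from the red cell globins. Neuroglobin (Ngb), the globin of neurons, stood at 1.18 and 1.31 TPM in control and at 1.11 and 1.34 TPM in Isl1cKO, with a log2 fold change of -0.01. Cytoglobin (Cygb) stood at 3.53 and 3.03 TPM in control and at 2.94 and 2.66 TPM in Isl1cKO. Myoglobin (Mb) was at 0.05 TPM or less. The neighbours of the alpha globin genes did not follow them either. Nprl3, whose introns hold alpha globin enhancers, stood at 17.3 and 16.6 TPM in control and at 18.3 and 15.8 TPM in Isl1cKO. Of 5 neighbours tested 0 passed in limma, 0 had an unadjusted p-value under 0.05, and their median log2 fold change was -0.07, from -0.11 for Sh3pxd2b to 0.13 for Mpg. The theta globins Hbq1a and Hbq1b were at 0.487 TPM or less, and Hbb-bh2 was listed at 0 in all 4 libraries.

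Markers of other cells that dissection can hold were read beside the globins. Over 12 endothelial genes the summed level was 95.6 and 73.3 TPM in control and 72.4 and 69.0 TPM in Isl1cKO, most of it from Kdr, which retinal progenitors also express. Of these genes, 11 of 12 were highest in control replicate 1, while the library with the most globin was control replicate 2. The exception was Egfl7, at 7.04 and 7.98 TPM in control and higher in both libraries labelled Isl1cKO, with a log2 fold change of 0.26. In most of the 12 genes, though not in Egfl7, Pecam1 or Sox17, both controls lay above both libraries labelled Isl1cKO, as in the globins. Only 3 of the 12 met the level needed for testing, so the 30.0% of all genes tested is no like measure for the list. Of those 3, Cldn5 and Kdr had this arrangement, Kdr by 57.0 TPM in control replicate 2 against 56.7 TPM in Isl1cKO replicate 1. Cdh5, Tie1 and Emcn, chosen after their values were seen, stood at 2.55, 1.80 and 2.16 TPM in control replicate 1 and at 0.357, 0.336 and 0.383 TPM in control replicate 2. They were the 3 endothelial genes listed at 0 in Isl1cKO replicate 2, where Pecam1 stood at 0.296, Esam at 0.299, Cldn5 at 3.38 and Kdr at 55.5 TPM. The 10 platelet genes summed to 18.9 and 17.6 TPM in control and to 11.6 and 9.10 TPM in Isl1cKO, and the defining genes Pf4 and Ppbp were at 1.58 TPM or less. Most of that sum came from Gp1bb, at 12.1 and 12.6 TPM in control and 7.54 and 5.70 TPM in Isl1cKO. The 10 macrophage genes summed higher in Isl1cKO, at 54.5 and 56.6 TPM in control and 68.6 and 81.4 TPM in Isl1cKO. Of 9 tested, 0 passed in limma, 8 had a fold change above 0 and 1 below. Both libraries labelled Isl1cKO lay above both controls in 5 of them, against 14.9% of all genes tested. Mrc1, too low to test, was lower, at 0.915 and 0.585 TPM in control and 0.287 and 0.0675 TPM in Isl1cKO. Of 12 lens genes, 11 were tested and 6 passed in limma, all lower in Isl1cKO, and the list summed to 190 and 237 TPM in control and to 13.3 and 9.47 TPM in Isl1cKO. Retinal ganglion cell genes summed to 3855 and 3303 TPM in control and to 2177 and 1500 TPM in Isl1cKO, with 0 of 10 past the threshold in limma and 8 below an unadjusted p-value of 0.05. Pigment epithelium, periocular mesenchyme, pericyte and retinal progenitor genes had 0 calls in limma and 1, 1, 0 and 1 gene at an unadjusted p-value under 0.05. The summed lens list thus also stood lower in both libraries labelled Isl1cKO, and in 9 of its 11 tested genes both controls lay above both. The groups overlapped in Bfsp1, at 2.33 and 2.29 TPM in control and 1.76 and 2.38 TPM in Isl1cKO. They overlapped also in Bfsp2, at 1.13 and 0 TPM against 1.32 and 0.262 TPM. Which cells held the RNA of the lens list, and the part of these cell types in the globin levels, was not tested.

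The genes whose pattern over the 4 libraries lay nearest to that of the 9 genes were found by Euclidean distance between centred log2(TPM + 1) profiles. Hbb-b2, which shares the position of Hbb-bt, was nearest, at a distance of 0.38. Then came Syt4, Crygn, Zbed6, Galnt14, Sst, Gm45935, Syt13, Shisal1 and Thsd7b, in that order, at distances from 1.37 to 1.67. Among the 9 genes themselves the distance ran from 0.13 for Hba-a1 to 3.98 for Hbb-bs. Syt4, a synaptotagmin of neurons, was higher in control replicate 1 than in replicate 2, at 29.4 and 22.4 TPM, unlike the globins, and stood at 4.67 and 1.77 TPM in Isl1cKO.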

How the data were processed

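Retina RNA at embryonic day 13.5 was sequenced in 2 control and 2 Isl1cKO libraries from poly(A)-selected, strand-specific preparations, per the labels' protocols. The authors deposited 1 table per library, so replicates were not pooled. The submitters' processing notes name Trimmomatic, FastQC, HISAT2, SAMtools, StringTie and DESeq2, without roles or versions, and the build mm10. The annotation and any use of strand in counting are not given in the sources used here. Per the file headers, the deposited values are mean coverage per base, FPKM and TPM. TPM summed to 1000000 in each library. No column holds counts, which left count models aside. Nothing says that replicates came from separate litters, so p-values measure the spread between these libraries.

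TPM was summed over repeated rows of a gene ID. Genes that reached 1 TPM in 2 or more libraries (13984 of 25239) were fitted as log2(TPM + 1) with limma 3.58.1 in R 4.3.3 (lmFit, eBayes, genotype only), with Benjamini-Hochberg adjustment over all genes and a threshold of 0.05. Fold changes on this scale understate the change of low genes. The fit was run on simulated data in which every gene had the same spread. That checks the code and not how well the fit suits these genes, whose spread differed. A count test had been planned first and this fit was its stated fallback. Depth in reads is unknown, so no counting intervals or limits for a value of 0 were computed.

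The genes and lists were chosen with earlier results of these data known. Genes named were the 9 genes, globins of other tissues, genes past the threshold and up to 4 more per red cell or neighbour list by size of change, and the 10 nearest patterns. Alas1, Gata1, Hemgn, Bcl11a, Sox6, Tie1, Emcn, Cdh5, Mrc1 and the granulocyte genes were named after their values were seen. Some genes the rule names are not reported here. Of the red cell lists, 75 of 76 genes were in the tables. Promoters come from RefSeq (GRCm38.p6) and coding sequences from GENCODE (GRCm38). Alternatives were another pseudocount, no filter, FPKM, median-ratio scaling, rescaling without globins, a mean-variance trend, a replicate block, other sums for the ratio, and each library left out.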

Additional observations from a re-analysis of the deposited data

How the results depend on the processing

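Counting Hbb-b1 and Hbb-b2 with Hbb-bs and Hbb-bt was chosen after seeing the data. The fold change of each of the 9 genes stayed below 0 in all 108 refits (8 alternatives with all libraries and 4 without 1 library), and with all 4 libraries 0 passed, the lowest adjusted p-value being 0.0703 in limma. Causes were not tested unless one is given. The count of 69 called genes was 44 at a pseudocount of 0.1, 15 with no filter, where more genes were tested, 109 with FPKM, 110 with a mean-variance trend and 10 to 37 without 1 library. The replicate numbers share no stated litter or day, and deviations of the replicates numbered 1 correlated at 0.126 across genes. With the replicate block 265 genes passed, including all 69, and again 0 of the 9. In fits without 1 library, a group's lone library is assumed to vary like the other group. Calls among the 9 genes are not read there. The 1 call in the other red cell lists became 0 with no filter, and 0 to 0 without 1 library. The 6 calls in lists of other cell types were 2 with no filter, 10 with the trend, 13 with the replicate block and 3 to 5 without 1 library. The mean log2 embryonic to adult ratio was 0.66 higher in Isl1cKO. It was 1.04 for the alpha family alone, 4.10 for the beta family alone (0.87 with Hbb-b1 and Hbb-b2), and 0.40 to 0.92 without 1 library. It was 0.98 with only the highest row of each gene, which drops 1 alpha copy in Isl1cKO replicate 2 by construction. From coverage per base it was 0.34, since the rows of Hba-a1 that span both copies have a coverage to FPKM ratio of 7.13 in control replicate 1 against a median of 14.3 over its genes. No value was computed for depth in reads, so low genes such as Gata1 have no stated error from counting.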

Other observations

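Granulocyte genes, which did not meet the level needed for testing, summed highest in 1 control library. S100a9, a calcium-binding protein of neutrophils, stood at 4.04 TPM in control replicate 1, was listed at 0 in control replicate 2 and Isl1cKO replicate 1, and stood at 0.322 TPM in Isl1cKO replicate 2. S100a8, its partner, stood at 2.18 TPM in control replicate 1 and was listed at 0 in the other 3 libraries. Camp stood at 0.774 TPM in control replicate 1, at 0 in control replicate 2 and at 0.309 and 0.368 TPM in Isl1cKO. The 7 granulocyte genes together summed to 8.18 TPM in control replicate 1 and to 0.199 TPM in control replicate 2. In Isl1cKO they summed to 0.339 and 0.690 TPM. The globins were higher in control replicate 2 than in control replicate 1.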
